A study of Mus musculus with 2 samples.

Results

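Ornithine decarboxylase and the proteins that govern it were followed as 4 genes: Odc1, the antizyme genes Oaz1 and Oaz2, and the antizyme inhibitor gene Azin1. Every transcript model listed under these gene symbols in either library was taken, which gave 4 of the 15031 annotated genes with a read. The genes were chosen by the reads of their model classes in these libraries, with those values known, so their levels and the classes of their models are given as a description.

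The libraries were long-read RNA-seq libraries of heart from aged female mice of strain B6CASTF1/J, a hybrid of the B6 and CAST strains, each made from 2 µg of RNA. The mice were adults of 18 to 20 months. There was 1 group with 2 libraries, no treatment and no second age or sex. The labels give the libraries separate biosamples but the same donor entry, and the same pair of sample codes stands in both descriptions, so differences between them may be technical and alleles of the hybrid were not separated.

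Ornithine decarboxylase makes putrescine from ornithine and commits the cell to the synthesis of polyamines, small cations that bind nucleic acids and support translation. Antizyme binds the monomer of this enzyme, keeps it from forming the active dimer, delivers it to the proteasome without ubiquitin, and lowers polyamine uptake. The antizyme reading frame is broken by a stop codon, and ribosomes reach the rest of the protein only by shifting the frame by a single base there, which polyamines promote. Antizyme inhibitor resembles ornithine decarboxylase but makes no putrescine, and it binds antizyme and so spares the enzyme.

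The sequence at which the frame shifts is shown first. The leading model of Oaz1 and of Oaz2, the one with most reads, differs there from annotated transcripts that otherwise have the same introns. The windows are from the GENCODE M21 transcripts (GRCm38, the same build as mm10). The Oaz1 window is chr10:80828262-80828327 on the plus strand, in exon 2 of the leading model and in the coding part. The Oaz2 window is chr9:65686239-65686304 on the plus strand, also in exon 2 and coding. Capitals mark the last codon of the first frame and the stop codon after it, or what an annotated transcript keeps of these 6 bases.
Oaz1 leading model: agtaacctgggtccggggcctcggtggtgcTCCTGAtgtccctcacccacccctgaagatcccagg
Oaz1-207: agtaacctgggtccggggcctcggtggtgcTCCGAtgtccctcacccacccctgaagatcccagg
Oaz1-201: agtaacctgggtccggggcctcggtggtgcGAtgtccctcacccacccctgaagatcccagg
Oaz2 leading model: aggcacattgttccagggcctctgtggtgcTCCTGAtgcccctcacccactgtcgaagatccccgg
Oaz2-206: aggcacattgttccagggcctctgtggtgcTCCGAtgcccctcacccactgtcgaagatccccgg
Oaz2-201: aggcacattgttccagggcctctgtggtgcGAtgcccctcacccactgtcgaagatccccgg

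The Oaz1 and Oaz2 windows shared 53 of 66 bases, and the 6 bases in capitals were the same in both. The annotation writes the frame shift as a gap between neighbouring exons. The gap is the single base at position 80828295 of chromosome 10 in Oaz1-202, Oaz1-203 and Oaz1-207, and the 4 bases 80828292 to 80828295 in Oaz1-201. In Oaz2 it is the base at 65686272 of chromosome 9 in Oaz2-204 and Oaz2-206, and the 4 bases 65686269 to 65686272 in Oaz2-201. The leading model of each gene runs through the gap in a single exon. That exon is 146 bases long in Oaz1 (80828237 to 80828382) and 158 bases long in Oaz2 (65686196 to 65686353).

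Oaz1 (ENSMUSG00000035242.15) lies on chromosome 10 from 80826656 to 80829290 on the plus strand and has 7 annotated transcripts, of which 6 are labelled protein coding and 4 carry the gap. It had 1156 reads in replicate 1 and 1189 in replicate 2. None of these reads was of a known transcript, which allows a share of up to 0.260% and 0.252%. Models that join known splice sites in a new combination took 1141 of 1156 reads, or 98.7% (exact Clopper-Pearson 95% interval 97.9 to 99.3), in replicate 1. They took 1174 of 1189, or 98.7% (97.9 to 99.3), in replicate 2. The libraries did not differ in this share beyond their intervals, which cover counting error only. Over all annotated genes such models took 2.74% and 2.76% of the reads, and known transcripts 69.9% and 68.6%.

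The leading Oaz1 model held 1099 of the 1156 reads, or 95.1% (93.7 to 96.2), in replicate 1. It held 1142 reads, or 96.0% (94.8 to 97.1), in replicate 2. It has 5 exons. In replicate 1 these are 80826682 to 80826905, 80828237 to 80828382, 80828461 to 80828633, 80828711 to 80828796 and 80828871 to 80829284, in all 1043 bases. In replicate 2 the listed start was 80826656 and the length 1069 bases, with the same 4 introns of 1331, 78, 77 and 74 bases. The intron chain is that of Oaz1-201 and Oaz1-207 in all but the gap. Both listed starts are starts of annotated transcripts, and 12 of 14 listed Oaz1 models in replicate 1 and 10 of 11 in replicate 2 have both ends at annotated ones. The ends in the files therefore cannot be read as the ends of the molecules.

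Read from the annotated start codon, the leading Oaz1 model gives 68 codons and then TGA at 80828295, in exon 2. With a shift of 1 base at that stop codon, 159 more codons follow, 227 in all. The frame then ends at TAG at 80829002 in exon 5, which is the annotated stop codon. The annotated coding part of Oaz1-207 has 681 bases, the same 227 codons. Reads of models that hold both the annotated start and stop codons made up 1149 of 1156 reads (99.4%) in replicate 1 and 1182 of 1189 (99.4%) in replicate 2. These include models with a changed coding part, such as those without exon 2 or with the later acceptor of exon 5.

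**Figure D1:**
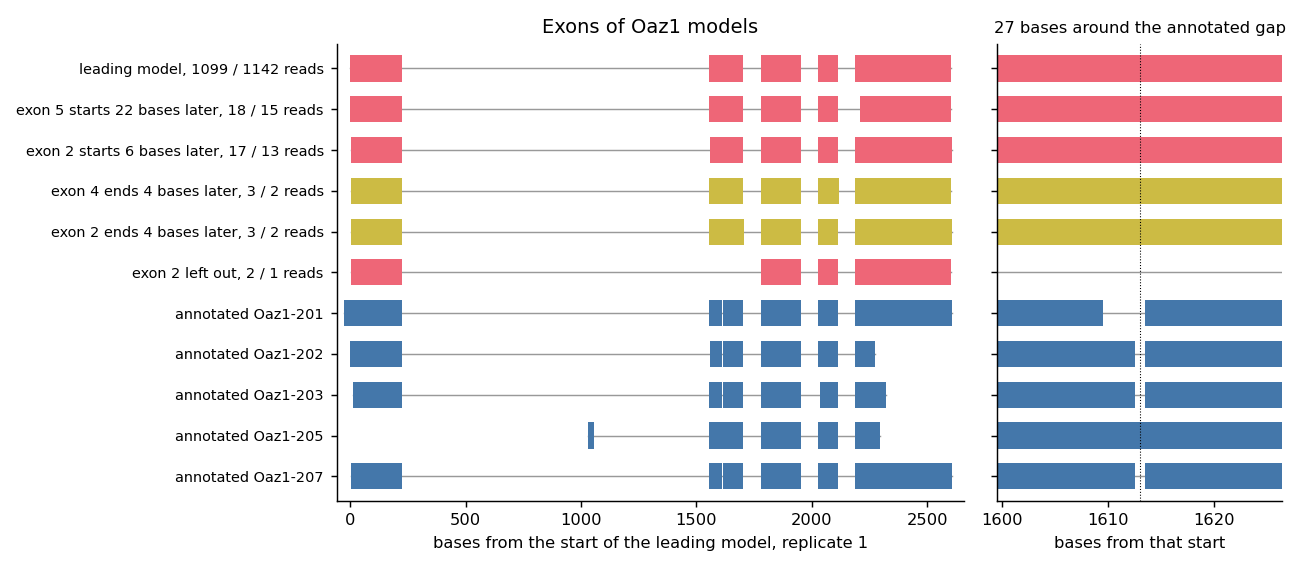
Exons of Oaz1 models by distance in bases from the start of the leading model of replicate 1, with deposited models in red (new combinations) and yellow (new splice sites) and annotated transcripts in blue; labels give reads in replicates 1 and 2. The right panel enlarges the annotated gap (dotted line): Oaz1-201 lacks 4 bases and Oaz1-202, Oaz1-203 and Oaz1-207 lack 1 base there, while the leading model and Oaz1-205 run through it.

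Oaz2 (ENSMUSG00000040652.16) lies on chromosome 9 from 65668001 to 65690300 on the plus strand and encodes a second antizyme. It had 145 and 166 reads in replicates 1 and 2, again with none of a known transcript, which allows a share of up to 2.07% and 1.81%. New combinations took 131 reads (90.3%, interval 84.3 to 94.6) in replicate 1 and 148 reads (89.2%, 83.4 to 93.5) in replicate 2. The leading model held 123 of 145 reads (84.8%) and 147 of 166 (88.6%). It has 5 exons and 1844 bases in both libraries, and its introns are those of Oaz2-201 and Oaz2-206 but for the gap. Its exons are 65676548 to 65676765, 65686196 to 65686353, 65687798 to 65687973, 65688821 to 65688906 and 65689095 to 65690300. Its first frame has 32 codons before TGA at 65686272, and 157 codons follow after a shift of 1 base. The 189 codons end at the annotated stop codon at 65689223, and the coding part of Oaz2-206 has 567 bases, the same number of codons.

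No transcript model of either library, of any gene, contained a gap of 10 bases or fewer between exons. The annotation holds 284 transcripts of 242 genes with such a gap, and 65 of these genes had reads. Of the 19 with at least 20 reads over both libraries, 7 had no read of a known transcript, and Oaz1 had the most reads of the 7. Every spliced coding transcript carried such a gap in 0 of the 19. In Oaz1 and Oaz2, however, each annotated transcript with all 4 introns of the leading model carries it (Oaz1-201, Oaz1-207, Oaz2-201 and Oaz2-206). The share without a known read over all genes with at least 20 reads is not given here. Whether the gap accounts for the 7 was not tested. In the other 12 of the 19 the known share ran from 0.632% in Mpc1 and 1.41% in Gbe1 to 86.0% in Tmem134 and 94.1% in Creb3. In Mpc1, 1 of 6 spliced coding transcripts carries such a gap, and the leading model (354 and 402 reads) lacked an annotated exon of 61 bases. Whether reads that did carry a short gap were closed before the models were made was not tested.

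Of the 1612 genes with at least 100 reads, 41 had no read of a known transcript, and Oaz1 and Oaz2 were among them. The median known share of the 1612 genes was 83.6%. Only 3 of the 1612 had over 90% of their reads in new combinations: Oaz1 (98.7%), Mpc1 (97.3%) and Phb2 (90.2%). Oaz2, at 89.7%, came next.

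**Figure D2:**
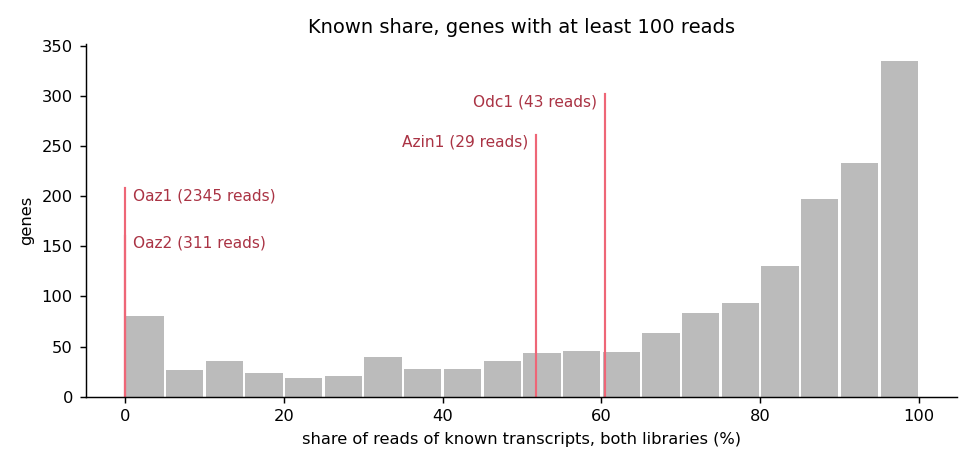
Share of reads on known transcripts over both libraries for the 1612 genes with at least 100 reads (grey bars, number of genes per 5 points). Red lines mark the 4 genes: Oaz1 and Oaz2 stand at 0 and Azin1 and Odc1, which have under 100 reads and are not in the bars, have larger known shares, both under the median of 83.6%.

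By the shares of the 5 model classes in each library (10 shares, 765 genes with at least 100 reads in each), Mpc1 was nearest to Oaz1, with a mean difference of 0.846 percentage points. Phb2 (3.39 points), Oaz2 (3.59), Tmed2 (6.46) and Card19 (7.61) followed. The nearest genes to Oaz2 were Phb2 (1.46 points), Oaz1 (3.59) and Mpc1 (3.89). In Phb2, the gene of prohibitin 2 of the inner mitochondrial membrane, the leading model (96 and 95 reads) lacked an annotated exon of 6 bases. The leading model of Mpc1 (354 and 402 reads) lacked an annotated exon of 61 bases. Neither differed from its nearest annotated transcript by a closed gap. For Azin1 the nearest genes were Fndc5 (4.48 points), Tmod1 (5.74) and Dstn (5.92). For Odc1 they were Sdhc (2.03), Sh3glb1 (3.11) and Lonp1 (3.82). These are likenesses of read classes over 2 libraries and rest on few reads for Azin1 and Odc1.

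**Figure D3:**
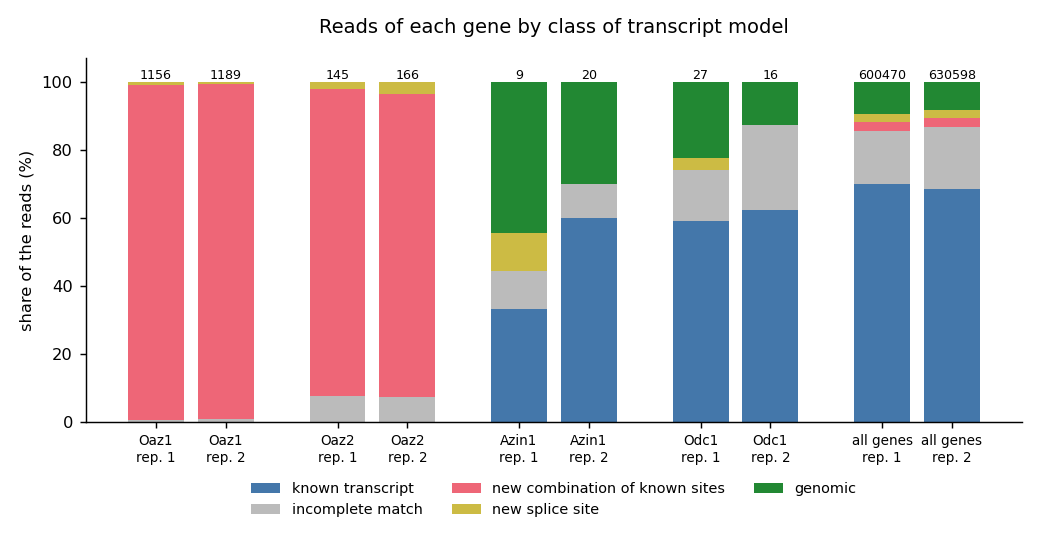
Stacked bars give the share of each gene's reads (%) by class of transcript model in each library, with the number of reads above the bar. Oaz1 and Oaz2 are nearly filled by new combinations of known splice sites, while Azin1, Odc1 and all annotated genes together have known transcripts as their largest class except Azin1 in replicate 1.

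Besides the leading form, 8 other Oaz1 models were found in both libraries. The most used choices were later acceptors at exons 5 and 2. They are printed with exonic bases in capitals, since they change the coding part by different amounts. The exon 5 window is chr10:80828851-80828910 and the exon 2 window chr10:80828217-80828266, both on the plus strand, each across the end of an intron and the start of a coding exon.
exon 5, leading acceptor: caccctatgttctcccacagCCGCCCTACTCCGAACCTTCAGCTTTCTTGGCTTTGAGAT
exon 5, acceptor 22 bases downstream: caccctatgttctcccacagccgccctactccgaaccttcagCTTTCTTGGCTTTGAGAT
exon 2, leading acceptor: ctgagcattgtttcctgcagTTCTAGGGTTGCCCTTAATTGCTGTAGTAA
exon 2, acceptor 6 bases downstream: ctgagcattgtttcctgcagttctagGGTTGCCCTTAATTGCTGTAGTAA

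The exon 5 acceptor 22 bases downstream, at 80828893, is annotated in Oaz1-204. It was used in 20 of 1154 reads that cross intron 4 in replicate 1 (1.73%, interval 1.06 to 2.66) and in 16 of 1182 in replicate 2 (1.35%, 0.776 to 2.19). With this acceptor the shifted frame stopped at TGA at 80828913 after 190 codons instead of 227. The exon 2 acceptor 6 bases downstream, at 80828243, is annotated in Oaz1-202. It was used in 19 of 1149 reads in replicate 1 (1.65%, 0.998 to 2.57) and in 14 of 1182 in replicate 2 (1.18%, 0.649 to 1.98). It left out 2 codons before the frame shift and kept the annotated stop codon, for 225 codons in all. Both later acceptors stood together in 2 reads of replicate 1 and 1 read of replicate 2.

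The remaining Oaz1 choices were rare. Donors 4 bases downstream of the annotated ones, at 80828386 for exon 2 and 80828800 for exon 4, are not annotated, and each had 3 and 2 reads. Their introns start with GT in the reference. The exon 3 to exon 4 junction used an acceptor 8 bases downstream in 2 reads of each library, as in Oaz1-203. Exon 2, which holds the frame shift, was left out in 2 reads of replicate 1 and 1 read of replicate 2. Without it the frame met TGA after 52 codons, at 80828471. In all, 16 intron chains or single-exon models were listed for Oaz1, 9 of them in both libraries. The 9 held 1148 of 1156 reads (99.3%) and 1185 of 1189 (99.7%), and no model found in 1 library had more than 3 reads.

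Intron 4 of Oaz1 is at the same time the hairpin of a microRNA gene, Mir1982, a microRNA made from a short intron. The RefSeq hairpin (GRCm38.p6, plus strand) is chr10:80828797-80828870, exactly the 74 bases of the intron. The hairpin and its mature arms are shown because the acceptor of exon 5 forms the end of the 3p arm. Capitals mark the seeds, bases 2 to 8 of each mature arm.
Mir1982 hairpin: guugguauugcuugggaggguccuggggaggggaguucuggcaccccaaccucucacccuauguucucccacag
mmu-miR-1982-5p: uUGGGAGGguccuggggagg
mmu-miR-1982-3p: uCUCACCCuauguucucccacag

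The arms have different seeds. A model with the span of this hairpin was listed under Mir1982 with 2 reads in replicate 1 and had none in replicate 2. Its reads are not counted among the Oaz1 reads, and whether they came from Oaz1 transcripts was not tested. Oaz1 reads that kept intron 4 were 0 of 1154 in replicate 1, which allows up to 0.260%, and 3 of 1182 in replicate 2 (0.254%, 0.0524 to 0.740). Neither count says how much of the mature microRNA was present, which these files do not measure. The later acceptor of exon 5 and the later donor of exon 4 change this intron. It then has 96 or 70 bases, and its ends are no longer both those of the hairpin.

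In Oaz2 the loss of exon 4 had 9 of 135 crossing reads in replicate 1 (6.67%, 3.09 to 12.3) and 1 of 154 in replicate 2 (0.649%, 0.0164 to 3.57). It was the commonest minor choice in replicate 1 but not in replicate 2. Without exon 4 the shifted frame stopped after 129 codons, at TGA at 65689129. The intervals overlap only narrowly, which does not settle whether the libraries differ in this share, and no test was planned on it. An acceptor 3 bases downstream at exon 2 (65686199), not annotated, was used in 3 of 134 reads (2.24%, 0.464 to 6.40) and in 6 of 154 (3.90%, 1.44 to 8.29). It removed 1 codon from the first frame, leaving 31, and kept the annotated stop codon. Single-exon models within the last exon had 10 reads in each library. Of 6 Oaz2 models, 4 were in both libraries and held 99.3% and 98.8% of the reads.

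**Figure D4:**
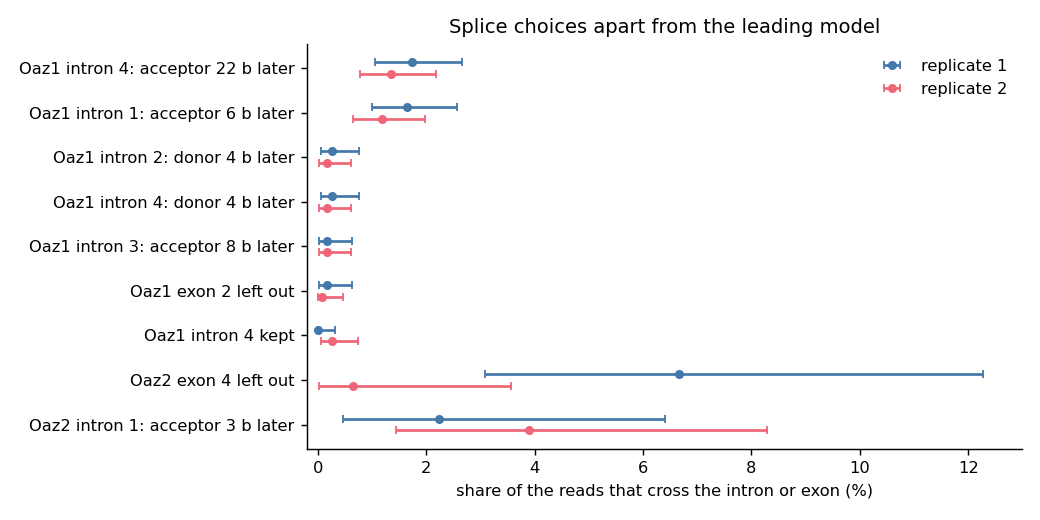
Share of the reads crossing an intron or exon (%) that used a splice choice other than the leading one, for choices with at least 3 reads over both libraries, with exact 95% intervals for replicate 1 (blue) and replicate 2 (red). The 2 later Oaz1 acceptors stand between 1.18% and 1.73% in both libraries. Only loss of Oaz2 exon 4 has its replicate values apart by more than 5 points, with intervals that overlap narrowly.

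Odc1 (ENSMUSG00000011179.8) lies on chromosome 12 from 17544794 to 17551505 on the plus strand, and its known transcript Odc1-201 encodes the enzyme. It had 27 reads in replicate 1 and 16 in replicate 2. Odc1-201, with 12 exons, 2208 bases and a coding part of 1383 bases, took 16 of 27 reads (59.3%, 38.8 to 77.6) and 10 of 16 (62.5%, 35.4 to 84.8). Genomic-class models, which do not follow annotated splicing, took 6 and 2 reads. They are single exons at the 3′ end, listed from 17551077 and 17551084 to 17551505, and thus from the ends of Odc1-208 and Odc1-201 to the end of Odc1-205. Incomplete matches took 4 reads in each library. A model with an acceptor 3 bases downstream of an annotated one (17547286) had 1 read in replicate 1. No read was of a new combination, which at this depth allows up to 11.1% and 18.8%.

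Azin1 (ENSMUSG00000037458.15) lies on chromosome 15 from 38487427 to 38519266 on the minus strand. It had 9 and 20 reads. Azin1-201, with 12 exons, 4871 bases and a coding part of 1344 bases, took 3 of 9 reads (33.3%, 7.49 to 70.1) and 12 of 20 (60.0%, 36.1 to 80.9). A genomic-class model took 4 and 6 reads. Its listed span is only 4 bases, 38488238 to 38488241, which are the ends of Azin1-203 and Azin1-205, so it locates these reads at the 3′ end but does not give their length. A new donor 4 bases downstream (38492240) was listed with 1 read. Unannotated antisense models lay over the locus with 1 read in replicate 1 and 5 in replicate 2 in all.

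In counts per 1000000 mouse reads, with library sizes scaled by TMM (CPM), Oaz1 stood at 1860 (exact 95% Poisson interval 1755 to 1971) in replicate 1 and 1765 (1666 to 1868) in replicate 2. Its mean was 1813 ± 67.4 (SD, n = 2), and 78 genes had a higher mean. Oaz2 stood at 233 (197 to 275) and 246 (210 to 287), a mean of 240 ± 9.24 (SD, n = 2). Odc1 had 43.5 (28.6 to 63.2) and 23.7 (13.6 to 38.6) CPM. Azin1 had 14.5 (6.62 to 27.5) and 29.7 (18.1 to 45.9) CPM. The order of Oaz1 above Oaz2 above both others held in each library, while Odc1 and Azin1 changed places and had overlapping intervals in replicate 2.

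Per kilobase of the leading model, the levels were 1784 and 1651 CPM for Oaz1, 126 and 134 for Oaz2, 19.7 and 10.8 for Odc1, and 2.97 and 6.10 for Azin1, in replicates 1 and 2. In CPM, Oaz1 was 7.97 and 7.16 times Oaz2, and per kilobase 14.1 and 12.4 times. It was 42.8 and 74.3 times Odc1 in CPM, and 90.7 and 153 times per kilobase. Odc1 is the gene of the enzyme that antizyme brings to the proteasome. Each long read is counted once whatever its length, so dividing by length widens the gap to the longer genes. In these whole-tissue libraries, fewer cells expressing a gene and less RNA per cell cannot be told apart.

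No member was called as different between the libraries. The exact binomial test per gene, Benjamini-Hochberg adjusted over 7545 genes with at least 10 reads, called 0 of the 4, at adjusted p = 0.829 for Oaz1, 0.999 for Oaz2, 0.630 for Azin1 and 0.554 for Odc1. It called 156 genes in all, or 2.07%, with 65 (0.861%) higher in replicate 1 and 91 (1.21%) higher in replicate 2. At an unadjusted p under 0.05 it also had 0 of the 4, beside 735 of the 7545 genes (9.74%). The ratio of replicate 1 to replicate 2 was 1.05 (95% interval 0.971 to 1.14) for Oaz1 and 0.947 (0.753 to 1.19) for Oaz2. It was 1.83 (0.951 to 3.64) for Odc1 and 0.488 (0.196 to 1.12) for Azin1. The intervals of Odc1 and Azin1 include differences as large as 3.64 times and, with replicate 2 higher, 5.11 times.

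The libraries did differ in markers of other cell types, and the gene levels above were not adjusted for this. The markers were chosen with earlier results of these data known, so their calls are a description. Over all genes tested 2.07% were called, 0.861% higher in replicate 1 and 1.21% higher in replicate 2. Summed over its 4 markers, atrial muscle stood at 1806 and 4318 CPM in replicates 1 and 2, and all 4 were called. The 5 fat cell markers summed to 94.9 and 1027 CPM (4 called), and the 5 erythroid markers to 30390 and 11780 (5 called). Of 5 airway markers 3 had reads, in replicate 2 only, at 597 CPM, while Sftpc and Sftpb had none. All 5 heart muscle markers had reads, as the label heart requires, and they summed to 34210 and 31450 CPM, with 2 called, both higher in replicate 1. Summed fibroblast (338 and 477), endothelial (752 and 1079) and macrophage (253 and 370) markers were 1.41 to 1.46 times higher in replicate 2. In each of these sets only 1 of 5 markers was called, higher in replicate 2. The part of these cells in the levels of the 4 genes was not tested.

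A processed pseudogene of Oaz1, Oaz1-ps, was the gene of this family that the test called. It is a single exon of 685 bases at chr17:17345456-17346140 on the minus strand. It had 3 reads in replicate 1 and 82 in replicate 2, or 4.83 and 122 CPM, 25.2 times higher in replicate 2 (8.33 to 125, adjusted p = 3.04e-17, exact binomial test). In replicate 1, models of a long non-coding RNA gene, AC154200.1, with 74 reads on the same strand also overlapped the pseudogene. Of these reads 73 were of a genomic-class model listed at 17345177 to 17345456, which shares only 1 base with the pseudogene, its last. That base is an annotated end, and, as for Oaz1, listed ends cannot be read as the ends of the molecules. The overlap of the 73 reads themselves is thus not known. The other read's model, listed from 17345177 to 17346214, overlapped it by 545 bases. Replicate 2 had no such model. Counted with these models, a choice made after seeing the data, the sums were 77 and 82 reads, or 124 and 122 CPM, a ratio of 1.02 (0.736 to 1.41). Whether the 73 reads and the 82 reads of replicate 2 came from the same transcript was not tested.

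The reference sequence of Oaz1-ps begins at the Oaz1 start codon and ends with its second stop codon. Over its 685 bases it matched the spliced Oaz1 model at 684 (99.9%) without a gap, across all 4 exon junctions, and its 66 bases around the frame shift were identical. Reads that cover only this stretch differ at 1 base between gene and copy, so which of them a read came from, and with it the values of both, is uncertain. The summed reads equal 6.66% and 6.90% of the Oaz1 reads. Of the 77 in replicate 1, 73 are of the AC154200.1 model whose listed span shares 1 base with this stretch. Whether those 73 could be Oaz1 reads was not tested. Adding all the summed reads would raise the mean level of Oaz1 from 1813 to 1935 CPM, an upper bound.

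The other genes of polyamine metabolism were taken from a list of 33, chosen with earlier results of these data known. Of these, 27 had reads and 15 had enough for the test, which called 0, beside 2.07% of all genes tested. At an unadjusted p under 0.05 there were 2 of the 15, Sms and Srm, beside 735 of 7545 genes (9.74%). The median log2 ratio of replicate 1 to replicate 2 over the 15 was 0.29, beside 0.00 over all genes tested. Arg1, Arg2, Agmat, Sat2, Oaz3 and Slc22a2 had no reads, so neither arginase, which makes ornithine, was detected at a level where 1 read is worth 1.61 and 1.48 CPM.

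In synthesis, Amd1 and Amd2, which encode S-adenosylmethionine decarboxylase, had 28 and 27 reads in replicate 1 and 46 and 20 in replicate 2. Sms, spermine synthase, had 37 and 15 reads, or 59.5 and 22.3 CPM, a ratio of 2.67 (1.43 to 5.24, adjusted p = 0.0531, exact binomial test), just outside the threshold of 0.05. Srm, spermidine synthase, had 18 and 8 reads. In the hypusine pathway, which attaches part of spermidine to a translation factor, that factor's gene Eif5a was the most abundant of the list, at 388 and 365 CPM. Its hydroxylase gene Dohh had 66.0 and 47.5 CPM. In methionine salvage, which recycles the by-product of polyamine synthesis, Apip had 195 and 230 CPM. Of the transport genes, Slc47a1 had 41.8 and 43.1 CPM and Slc3a2 38.6 and 29.7 CPM.

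Oaz1 was the most abundant of these genes on both scales. Per kilobase, Eif5a stood at 289 and 272 CPM and Apip at 212 and 250, between Oaz1 and Oaz2. For Apip the length was that of Apip-201 (919 bases, 34 and 52 reads), which was not its model with the most reads. Odc1 at 19.7 and 10.8 lay near Slc3a2 (21.2 and 16.3), Amd1 (14.1 and 21.3) and Sms (16.0 and 5.99). The antizyme inhibitor gene Azin2 had 2 and 3 reads. Unlike the antizymes, Eif5a had 91.3% and 87.8% of its reads on known transcripts and Dohh 97.6% and 93.8%. Slc47a1 had only 7.69% and 20.7%, and 14 of its 26 and 12 of its 29 reads were of the genomic class.

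**Figure D5:**
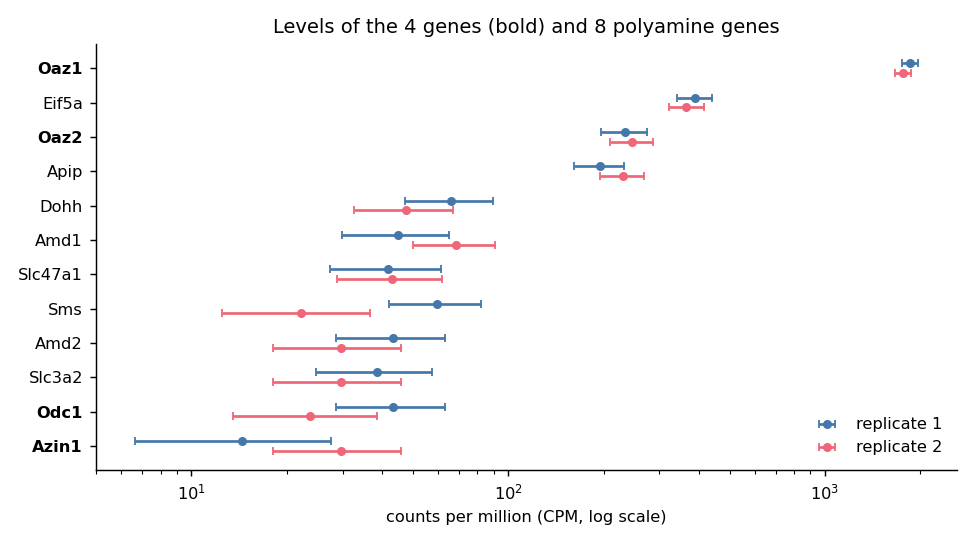
CPM (log axis) with exact 95% Poisson intervals in replicate 1 (blue) and replicate 2 (red) for the 4 genes (bold) and the 8 most abundant genes of the polyamine list. Oaz1 stands above all others, at 1860 and 1765 CPM, while Odc1 and Azin1 have the lowest means, with values between 14.5 and 43.5 CPM that overlap those of other genes.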

How the data were processed

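The authors deposited, for each of the 2 libraries, a table of read counts per transcript model and a file of the models' exons. Per the notes deposited with them, reads were aligned to mm10 and models were annotated against GENCODE M21, and the model file names TALON as the source of new models. No source used here names the aligner, its version or the filters. The counts are whole reads and sum to 642970 for replicate 1 and 677209 for replicate 2. Mouse contigs hold 630211 and 664319 of them, and spike-ins the rest.

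Classes are those of the deposited tables: known, incomplete match, new combination of known splice sites, new splice site, and genomic. Models were matched between libraries by transcript name, by identical introns, or, for single exons, by 50% reciprocal overlap. Counts per gene were scaled by TMM (edgeR 4.0.16; factors 0.986 and 1.01) and compared by an exact two-sided binomial test (scipy 1.17.1) with Benjamini-Hochberg adjustment over genes with at least 10 reads, tested on simulated data first. Log2 ratios add 0.5 reads. It measures these 2 libraries against counting error only. Alternatives were other library sizes (DESeq2 1.42.0 size factors, total reads), other read classes and other minimums. Intervals and limits from 0 counts (3 reads) cover counting error only.

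Named genes were the 4 members, the 8 most abundant and any called of the polyamine list, and the genes nearest in class shares. Named models were those with at least 3 reads in each library and the 3 with most reads per gene. Other models, Oaz1-ps, Mir1982 and the single-read splice sites were named after their values were seen. The members and all lists were chosen with earlier results of these data known.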

Additional observations from a re-analysis of the deposited data

How the results depend on the processing

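In all, 54 values were recomputed 250 times, and 219 of the recomputed values stayed within the bounds set for them. The count of called genes was 156 and became 102 with only reads of known transcripts, where fewer genes were tested, and 216 with the genomic class left out. It was 129 with no minimum and 156 to 161 under the other 3 settings. No member was called in its 21 recomputations, with adjusted p from 0.467 to 1. Sms passed with the genomic class left out (adjusted p = 0.0394) and with at least 50 reads (0.0264). Counting the overlapping AC154200.1 models with Oaz1-ps moved its log2 ratio from -4.44 to 0.026 (adjusted p = 1).

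With only known transcripts Oaz1 and Oaz2 had 0 CPM, because neither has a known read. Leaving out the genomic class, which lowers the library sizes, gave 2090 CPM for Oaz1 and 277 for Oaz2, and adding those models and Oaz1-ps gave 1935 CPM for Oaz1. The new-combination share of Oaz1 was 98.9% with models of at least 2 reads. The known share, which is the share of the leading model, rose without the genomic class to 72.9% in Azin1 and 73.8% in Odc1. In Odc1 it was 69.0% with models of at least 2 reads. Among models with all introns it was 87.5% in Azin1 and 97.1% in Odc1, and this setting gives no value for Oaz1 and Oaz2.

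No paired analysis was possible because there is 1 group. Odc1 and Azin1 rest on 9 to 27 reads per library, so their shares have wide intervals.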

Other observations

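Apip had most of its reads on shortened models. An incomplete match of 2 exons at its 3′ end held 70 reads in replicate 1 and 84 in replicate 2, more than the full Apip-201 with 34 and 52. Amd1 had 10 of 28 and 19 of 46 reads on genomic-class models, while Amd2 had all of its 27 and 20 reads on 1 known transcript.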
